A study of Mus musculus with 9 samples.

Results

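The acute phase proteins described here are 10 secreted proteins of the liver, most of which it makes in larger amounts during inflammation. They were picked by gene symbol from the table of 51912 genes, and all 10 were found. They comprise the serum amyloid A genes *Saa1*, *Saa2*, *Saa3* and *Saa4*, the orosomucoid genes *Orm1*, *Orm2* and *Orm3*, and *Hp*, *Lcn2* and *Apcs*. Comparing them between ASO groups is a readout of hepatic inflammation during ASO treatment.

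In the acute phase response, IL-6 acts on hepatocytes through its receptor, JAK kinases and STAT3, while IL-1β and TNF act through NF-κB. C/EBP factors join both arms at many hepatocyte promoters. SAA1 and SAA2 are small apolipoproteins that travel on HDL and are among the most strongly induced plasma proteins of the mouse. Orosomucoids are acidic glycoproteins that carry basic drugs, haptoglobin binds free hemoglobin, lipocalin 2 withholds bacterial siderophores, and serum amyloid P is a pentraxin and a major acute phase reactant in mice.

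All 9 mice had been fasted and shared a C57Bl/6 background and the same genotype, which was Apoe-/- with Ndst1 f/f and Alb-Cre+. All livers therefore lacked apoE, and albumin-driven Cre had removed the heparan sulfate sulfotransferase NDST1 in hepatocytes, so no liver here is wild type. The mice received an antisense oligonucleotide (ASO), which marks its target RNA for cleavage by RNase H, at 50 mg/kg/week for 8 weeks by intraperitoneal injection. In 5 mice the ASO was directed against apoC-III, a plasma inhibitor of triglyceride clearance, and in 4 mice it was a control ASO. There was no group without an ASO, so an effect that both ASOs share cannot be seen in this comparison. The ages of the mice, and the diet of those used for sequencing, were not given in the sources used here. Each liver was sequenced once, as a library of RNA depleted of ribosomal RNA.

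The deposited values are TPM, the share of a library that belongs to a gene after correction for its length. Nuclear protein-coding genes made up 3.03% to 5.31% of TPM in apoC-III ASO livers against 1.94% to 8.64% in control ASO livers, the lowest in control ASO replicate 4, and 7SL and mitochondrial ribosomal RNA took most of the rest. Levels are therefore given as scaled TPM, in which these genes were brought to 1000000 per liver and divided by a median-of-ratios factor, a size factor set by the typical gene. Fold changes are on the log2(scaled TPM + 1) scale and were tested with limma-trend in the 11954 genes with a mean of at least 1. TPM keeps no depth, so no counting intervals can be given. In whole liver, fewer cells of a type and less RNA per cell cannot be told apart. *Apoc3*, the target, averaged 451 ± 112 scaled TPM (SD, n = 5) with its own ASO against 3579 ± 493 (SD, n = 4) in control ASO livers. The log2 fold change was −3.01, and it was called by limma-trend with Benjamini-Hochberg adjustment (adjusted p = 3.83e-04).

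The serum amyloid A genes lie side by side on chromosome 7 of GRCm38. *Saa3* (46711998 to 46715700), *Saa4* (46727998 to 46732603) and *Saa1* (46740497 to 46742980) are on the minus strand, and *Saa2* (46751790 to 46754313) is on the plus strand. *Saa1* and *Saa2* point away from each other across 8809 bases. The orosomucoid genes form a second cluster on the plus strand of chromosome 4, in the order *Orm1* (63344560 to 63348163), *Orm3* (63356162 to 63359511) and *Orm2* (63362449 to 63365878). *Hp* is on chromosome 8 (109575128 to 109579172), *Lcn2* on chromosome 2 (32384633 to 32388252) and *Apcs* on chromosome 1 (172893961 to 172895041), each on the minus strand. The neighbours are copies with shared sequence. Of the 31-base words in *Saa1* transcripts, 46.0% also occur in *Saa2*, and of those in *Orm1*, 27.5% also occur in *Orm2*. *Orm3* shares 9.42% of its words with another gene and *Saa3* 7.56%, while *Lcn2* and *Apcs* share 0. How reads were divided between *Saa1* and *Saa2*, or among the orosomucoid genes, was an estimate of the quantifier, so single values of these genes are less certain than their sums.

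The start-site regions of 5 members are shown: *Saa1* beside *Saa2* and *Orm2* beside *Orm3*, related copies whose values are compared here, and *Saa3*, the member with the smallest p among those that were higher. Each is the RefSeq window of GRCm38.p6 from 250 bases before to 50 bases after the start, read 5′ to 3′ on the gene's own strand. Capitals mark the C/EBP motif TTGCNNAA on either strand and the TATA box TATAAA. The windows are chr7:46742931-46743230 (minus) for *Saa1*, chr7:46751583-46751882 (plus) for *Saa2*, chr7:46715627-46715926 (minus) for *Saa3*, chr4:63362199-63362498 (plus) for *Orm2* and chr4:63355908-63356207 (plus) for *Orm3*.
Saa1: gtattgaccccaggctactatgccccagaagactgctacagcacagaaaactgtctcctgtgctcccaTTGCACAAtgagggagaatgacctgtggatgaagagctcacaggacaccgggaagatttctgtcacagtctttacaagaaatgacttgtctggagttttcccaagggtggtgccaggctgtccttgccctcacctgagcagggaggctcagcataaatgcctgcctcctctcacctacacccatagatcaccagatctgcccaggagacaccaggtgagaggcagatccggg
Saa2: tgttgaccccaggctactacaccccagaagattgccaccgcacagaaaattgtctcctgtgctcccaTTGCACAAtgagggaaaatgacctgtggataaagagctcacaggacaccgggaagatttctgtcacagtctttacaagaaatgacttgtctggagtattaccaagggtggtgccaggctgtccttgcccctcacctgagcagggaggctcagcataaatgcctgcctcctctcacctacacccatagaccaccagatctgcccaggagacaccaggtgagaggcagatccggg
Saa3: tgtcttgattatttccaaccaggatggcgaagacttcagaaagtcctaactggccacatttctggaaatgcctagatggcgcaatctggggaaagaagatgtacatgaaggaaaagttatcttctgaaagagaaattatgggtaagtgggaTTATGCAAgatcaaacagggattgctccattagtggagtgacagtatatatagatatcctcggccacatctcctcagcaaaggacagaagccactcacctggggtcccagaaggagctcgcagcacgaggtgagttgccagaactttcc
Orm2: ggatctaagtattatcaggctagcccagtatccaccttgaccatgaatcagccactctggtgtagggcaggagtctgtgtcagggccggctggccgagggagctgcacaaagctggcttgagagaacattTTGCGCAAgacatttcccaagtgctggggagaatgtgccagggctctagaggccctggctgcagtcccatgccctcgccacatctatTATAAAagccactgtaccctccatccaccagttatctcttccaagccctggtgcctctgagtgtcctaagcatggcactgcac
Orm3: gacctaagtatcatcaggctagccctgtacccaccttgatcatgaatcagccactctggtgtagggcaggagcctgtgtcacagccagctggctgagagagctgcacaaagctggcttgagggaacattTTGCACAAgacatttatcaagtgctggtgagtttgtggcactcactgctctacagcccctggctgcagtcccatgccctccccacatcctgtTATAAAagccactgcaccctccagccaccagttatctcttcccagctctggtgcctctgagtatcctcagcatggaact

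A window was found for 8 of the 10 members, all but *Orm1* and *Hp*. The *Saa1* and *Saa2* windows, once aligned, were identical at 287 of 300 bases, and both hold TTGCACAA, beginning 182 and 183 bases before the start. The *Orm2* and *Orm3* windows were identical at 264 bases. *Orm2* reads TTGCGCAA 120 bases before its start, a word that is its own reverse complement, where *Orm3* reads TTGCACAA at 121, and each has a TATA box. In *Saa3* the motif lies on the opposite strand, 99 bases before the start. The C/EBP motif was in 7 of the 8 windows, all but that of *Apcs*, and in 10.8% of 27025 RefSeq windows. The STAT motif TTCNNNGAA was in 1 of the 8, *Apcs*, and in 8.47% of all windows. The NF-κB consensus was in 0 of the 8 and in 8.18% of all. Both strands were searched for the C/EBP, STAT and NF-κB motifs, and the gene's own strand for the TATA box. No matches of different motifs overlapped in these windows. A match of letters describes the window and does not show that a factor binds there.

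The members covered a wide range of levels per length. *Hp* was highest at 2904 ± 885 scaled TPM over the 9 livers (SD), above 99.8% of the genes tested, followed by *Orm1* at 399 ± 102. *Saa1* (150 ± 50.8), *Saa4* (132 ± 52.7), *Apcs* (81.9 ± 21.3), *Saa2* (77.1 ± 35.6), *Saa3* (46.7 ± 20.8), *Orm2* (27.9 ± 13.5) and *Lcn2* (21.3 ± 14.6) came next, and *Orm3* was lowest at 7.03 ± 3.91. *Hp* was above *Orm1*, and *Orm1* above *Saa1*, in 9 of 9 livers, with ranges that did not overlap. For all later neighbours in this order the ranges overlapped, and the higher gene by mean was above its neighbour in 5 to 8 livers. The constitutive *Saa4*, whose protein is part of resting HDL, was about level with *Saa1*, which it exceeded in 4 of 9 livers. The pseudogene *Saa-ps* was listed at 0 in 9 of 9 livers.

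**Figure D1:**
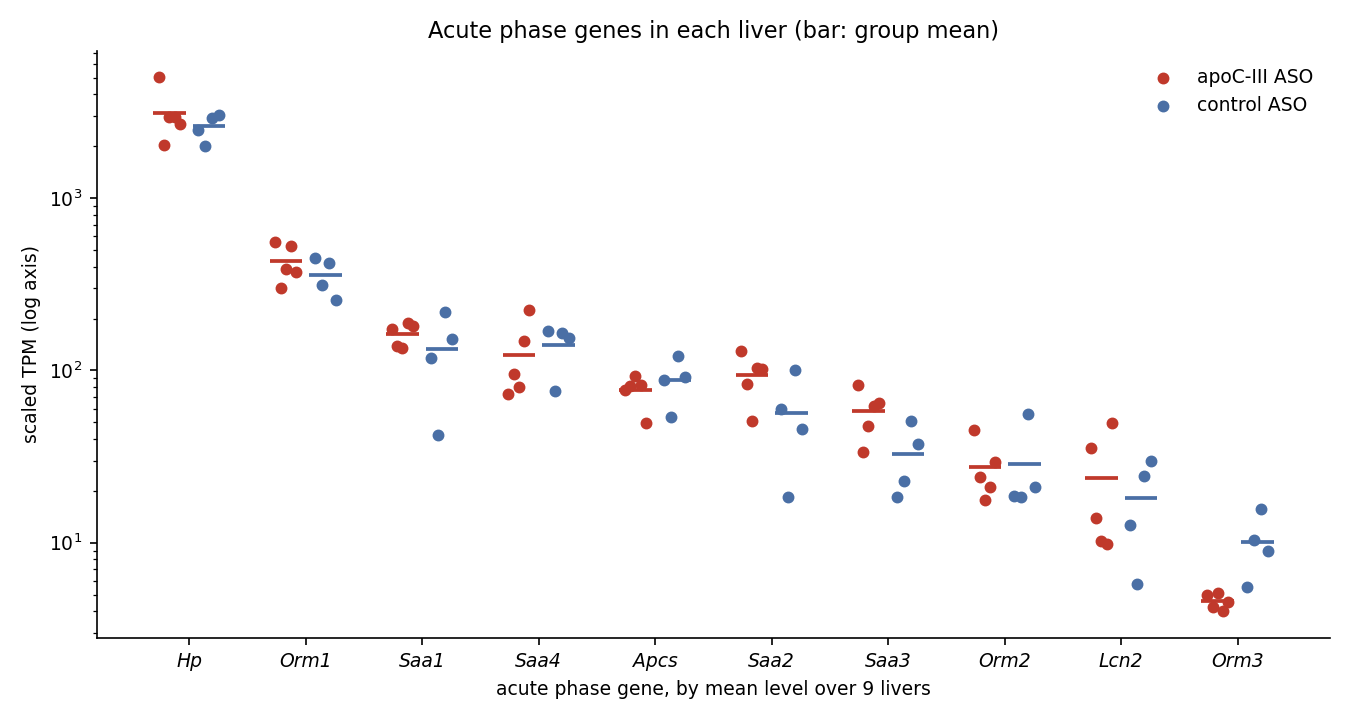
Scaled TPM of the 10 acute phase genes in each liver, on a log axis, with genes ordered by mean level. Red points are the 5 apoC-III ASO livers, blue points the 4 control ASO livers and bars the group means. *Orm3* at the right is the member whose groups do not overlap, at 4.01 to 5.09 against 5.51 to 15.6 scaled TPM.

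Between the ASO groups, 0 of the 10 members passed the limma-trend test (over 1.5-fold at an adjusted p under 0.05), against 0.0167% of all genes tested, which is 2 genes. All 10 passed the filter on low values. By mean log2 level 7 members were higher on the apoC-III ASO and 3 were lower, with a median log2 fold change of 0.24 beside −0.0012 for all genes tested, of which 49.8% were higher. That median was 0.06 without apoC-III ASO replicate 1 and −0.03 without control ASO replicate 2. The latter was the only liver whose removal turned its sign, so its direction depended on that liver. An unadjusted p under 0.05 was found for 2 members, *Saa3* upward and *Orm3* downward, against 5.56% of all genes tested (2.99% upward and 2.58% downward), and by the exact permutation test for *Orm3* only. Groups that did not overlap were found for 1 member, against 1.83% of all genes. The smallest adjusted p of a member was 0.848 (limma-trend with Benjamini-Hochberg adjustment). The members varied among livers: 6 had a residual SD above the median of all genes, and the median residual SD was 0.59 on the log2 scale against 0.44 over all genes. For *Saa1*, *Saa2*, *Saa3* and *Lcn2* the 95% confidence interval of the fold change extended past 2-fold higher, so a rise of that size in these 4 lies within the error of the comparison.

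*Saa1* encodes the main HDL-borne acute phase apolipoprotein together with *Saa2*. It was at 175, 138, 134, 188 and 180 scaled TPM in apoC-III ASO replicates 1 to 5 and at 117, 42.4, 219 and 152 in control ASO replicates 1 to 4. The treated livers lay close together, inside the wider control range that replicate 2 and replicate 3 set. The log2 fold change was 0.51 (SE 0.39), and it missed the threshold (adjusted p = 0.914, limma-trend with Benjamini-Hochberg adjustment). Without control ASO replicate 2 it fell to 0.04.

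*Saa2* was at 130, 83.3, 50.7, 103 and 102 scaled TPM on the apoC-III ASO and at 59.6, 18.5, 101 and 45.8 on the control ASO. Of the treated livers, 3 were above every control, and control ASO replicate 2 was again the lowest. The fold change was 1.86 (95% confidence interval 0.973 to 3.55), which missed the threshold (adjusted p = 0.883, limma-trend with Benjamini-Hochberg adjustment). Without control ASO replicate 2 the log2 fold change was 0.45 in place of 0.89. The sum of *Saa1* and *Saa2*, which depends little on how their shared reads were divided, was 257 ± 51.2 scaled TPM (SD, n = 5) against 189 ± 106 (SD, n = 4), and the control range of 61.0 to 320 held all treated livers, at 185 to 305.

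*Saa3*, a serum amyloid that macrophages and adipocytes as well as hepatocytes make in inflammation, was at 82.1, 33.7, 47.8, 62.4 and 64.6 scaled TPM in the apoC-III ASO livers. In the control ASO livers it was at 18.5, 22.9, 51.0 and 37.6. All 5 treated livers were above the control median and 3 were above every control, but the groups overlapped. The fold change was 1.82 (95% confidence interval 1.10 to 3.02), with an unadjusted p of 0.0242 and an adjusted p of 0.876 (limma-trend with Benjamini-Hochberg adjustment), so it was not called. The exact two-sided permutation test gave p = 0.0794, and 5 livers against 4 allow no p below 0.0159. Macrophage markers did not separate the groups: the summed level of the 9 of 10 markers that the table holds was 93.5 to 140 scaled TPM in apoC-III ASO livers against 83.7 to 145 in control ASO livers. Of the 8 tested, 5 were higher and 3 lower, where 49.8% of all genes tested were higher. Their median log2 fold change was 0.10, and 0 had an unadjusted p under 0.05 (limma-trend). The 6 adipocyte markers summed to 9.86 to 21.8 and 7.42 to 20.7, with *Adipoq* and *Lep* at 0 in all livers. Most of this sum was *Fabp4*, the only marker of the list that was tested. Its log2 fold change was 0.62 (unadjusted p = 0.0921, limma-trend), so the sum says little about adipocytes. The unadjusted p of *Saa3* was 0.0590 without apoC-III ASO replicate 1, 0.0871 without control ASO replicate 1 and 0.0712 without control ASO replicate 2.

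*Saa4* was at 73.3, 94.8, 80.1, 147 and 223 scaled TPM on the apoC-III ASO and at 170, 76.2, 166 and 154 on the control ASO. The treated livers included both the lowest and the highest value. Its log2 fold change was −0.25 (SE 0.36, limma-trend with Benjamini-Hochberg adjustment, adjusted p = 0.966). Neither *Saa4* nor *Saa1* gave a difference larger than the spread among livers.

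*Orm1*, the most abundant orosomucoid, was at 559, 301, 389, 524 and 375 scaled TPM on the apoC-III ASO and at 451, 313, 419 and 256 on the control ASO. Replicates 1 and 4 of the treated group were above every control. The log2 fold change was 0.26 (SE 0.26, limma-trend with Benjamini-Hochberg adjustment, adjusted p = 0.943). *Orm2* was at 44.9, 24.2, 17.6, 21.1 and 29.3 scaled TPM on the apoC-III ASO and at 18.7, 18.4, 55.7 and 21.1 on the control ASO. Control ASO replicate 3 alone was above all treated livers, and the log2 fold change was 0.04 (SE 0.36).

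*Orm3* showed another pattern. It was at 4.98, 4.23, 5.09, 4.01 and 4.54 scaled TPM on the apoC-III ASO and at 5.51, 10.4, 15.6 and 8.93 on the control ASO. All 5 treated livers were below all 4 controls, although the lowest control, replicate 1, was only 1.08 times the highest treated liver. The treated livers were also much alike, with a coefficient of variation of 10.2% against 41.6% in the controls. The fold change was 0.528 (95% confidence interval 0.351 to 0.793), with an unadjusted p of 0.00522, the 71st smallest of 11954, and an adjusted p of 0.848 (limma-trend with Benjamini-Hochberg adjustment), so it was not called. The exact two-sided permutation test gave p = 0.0159, the smallest that 5 livers against 4 allow. In TPM as deposited *Orm3* was at 0.131 to 0.358 on the apoC-III ASO and at 0.0861 to 0.823 in control ASO livers, and there the groups overlapped, since replicate 4 was the lowest of the controls. At such levels a value can rest on few reads, whose number TPM does not show.

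The orosomucoid genes were also compared within each liver, where the scaling cancels. The ratio of *Orm2* to *Orm3* was 3.46 to 9.02 in apoC-III ASO livers against 1.77 to 3.57 in control ASO livers. The ratio of *Orm1* to *Orm3* was 71.2 to 131 against 26.8 to 81.9. Both ratios were higher in median in the treated livers, at 5.72 against 2.88 and at 82.6 against 29.4, and both overlapped between groups. The sum of the orosomucoid genes, nearly all of it *Orm1*, was 462 ± 114 scaled TPM (SD, n = 5) against 398 ± 100 (SD, n = 4).

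*Hp* was at 5016, 2040, 2973, 2964 and 2681 scaled TPM on the apoC-III ASO and at 2485, 2011, 2912 and 3055 on the control ASO. Apart from apoC-III ASO replicate 1, all livers lay between 2011 and 3055, and the log2 fold change was 0.21 (SE 0.28, limma-trend with Benjamini-Hochberg adjustment, adjusted p = 0.960). Without that liver it was 0.03. *Lcn2* had the widest spread of the members. It was at 35.4, 13.9, 10.2, 9.84 and 49.4 scaled TPM on the apoC-III ASO and at 12.6, 5.73, 24.6 and 30.0 on the control ASO. Its highest liver was 8.62 times its lowest, and its log2 fold change of 0.30 had an SE of 0.55. Lipocalin 2 is also a product of neutrophils, whose 11 markers summed to 0.99 to 3.41 scaled TPM in apoC-III ASO livers against 1.57 to 15.0 in control ASO livers, with *S100a8*, *Ngp*, *Mpo*, *Elane*, *Mmp8* and *Ly6g* at 0 in all livers. Only 2 of the 11 passed the filter on low values. The 15.0 was in control ASO replicate 2, where *Ltf* alone was at 10.6 and *Lcn2* was at its lowest. *Apcs* was at 76.5, 80.8, 93.3, 82.7 and 49.6 scaled TPM on the apoC-III ASO and at 87.6, 53.8, 121 and 91.8 on the control ASO. The ranges overlapped, and the log2 fold change was −0.18 (SE 0.27, limma-trend with Benjamini-Hochberg adjustment, adjusted p = 0.966).

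**Figure D2:**
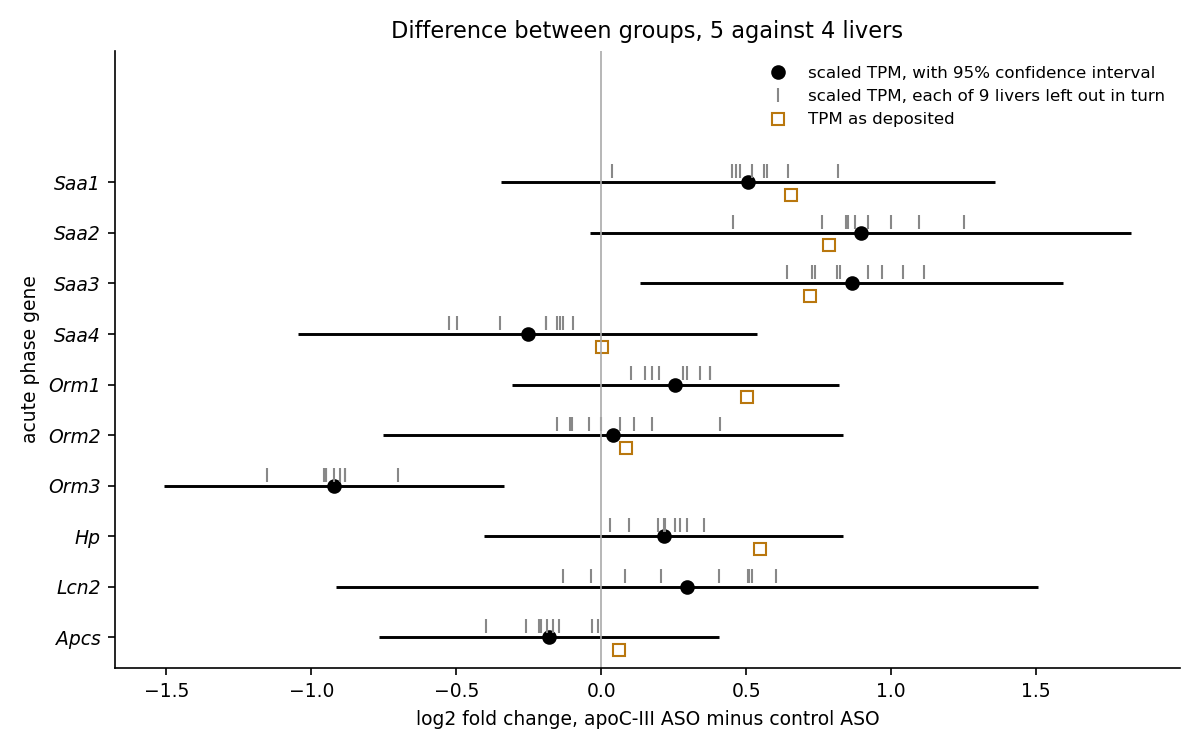
Log2 fold change of each acute phase gene, apoC-III ASO minus control ASO. Black points and lines are scaled TPM with the 95% confidence interval, grey ticks the values with each of the 9 livers left out in turn, and open squares TPM as deposited, where *Orm3* and *Lcn2* had a mean below 1 and were not tested. The intervals of *Saa3* and *Orm3* lie on one side of 0, and the values of *Orm2* and *Lcn2* cross 0 when a liver is left out.

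The livers at the extremes of the members came from both groups. In control ASO replicate 3, 10 of 10 members were above their mean over the 9 livers, by a median of 0.52 on the log2 scale. In control ASO replicate 2, 9 of 10 were below it, the median over all 10 was −0.61, and *Saa2* was lowest there at −1.82. The exception in that liver was *Orm3*, which was above its mean by 0.63. In apoC-III ASO replicate 1, 7 of 10 members were above the mean, by a median over all 10 of 0.66, while *Saa4* was at −0.73.

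**Figure D3:**
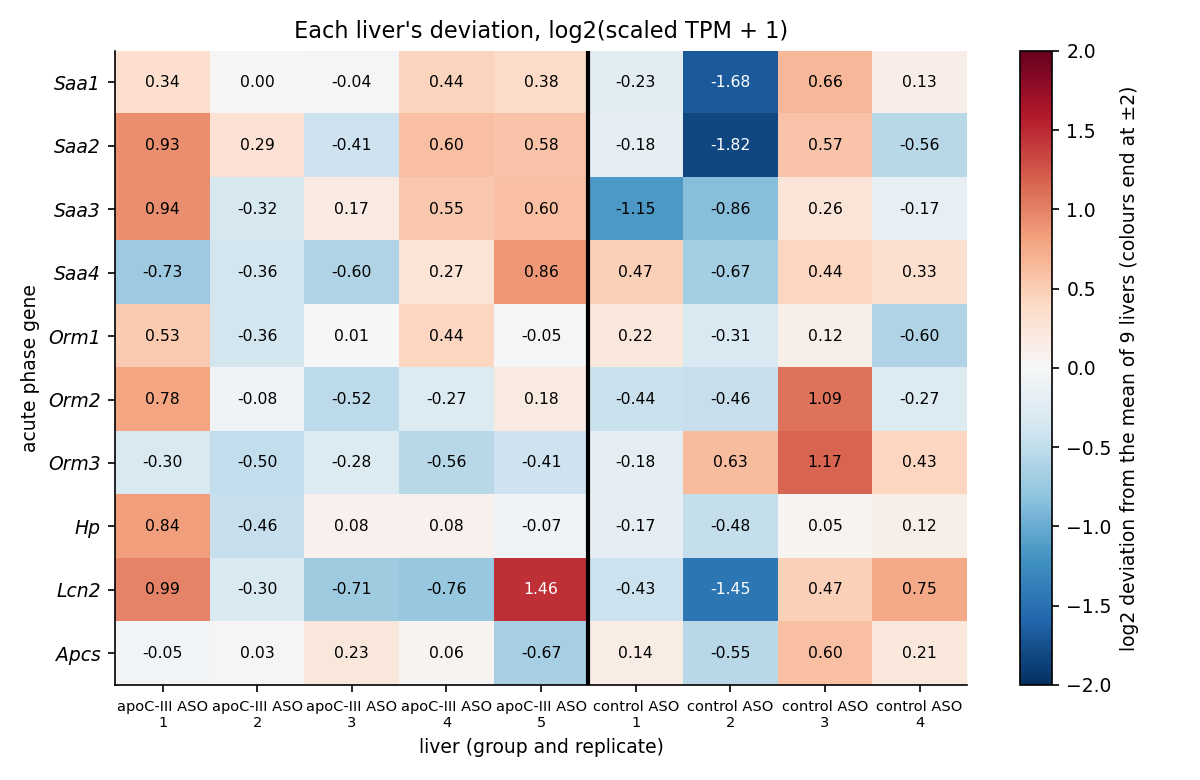
Deviation of each acute phase gene in each liver from its mean over 9 livers, on the log2(scaled TPM + 1) scale, printed in each cell. Red is above and blue below the mean, and the black line divides 5 apoC-III ASO from 4 control ASO livers. Control ASO replicate 3 is above the mean for all 10 genes, and control ASO replicate 2 is below it for all but *Orm3*.

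Of the 45 pairs of members, 36 had a Pearson correlation above 0 over the 9 livers, with a median r of 0.38, or 0.50 after the group means were removed. The same values were not computed for pairs of other genes. They therefore do not show that the members vary together more than other genes do. An unadjusted exact permutation p under 0.05 was found for 5 pairs and an adjusted p under 0.05 for 0. *Saa1* and *Saa2*, which share reads, had r = 0.90 (exact permutation p = 0.00352, adjusted p = 0.158) and Spearman's rho = 0.73 (exact permutation p = 0.031, adjusted p = 0.280), and r = 0.70 without the 2 livers farthest from the median of *Saa1*. *Saa3* and *Hp*, which share next to no sequence and lie on different chromosomes, had r = 0.72 (exact permutation p = 0.023, adjusted p = 0.264) and rho = 0.63 (exact permutation p = 0.076, adjusted p = 0.380), and r = 0.74 without the 2 farthest livers. *Orm3* had r from −0.38 to −0.21 with *Saa1*, *Saa2*, *Saa3* and *Orm1* over all livers, −0.12 with *Hp*, −0.02 with *Lcn2* and 0.07 with *Saa4*, and 0.35 with *Orm2* and 0.32 with *Apcs*. *Saa4* was near 0 over all livers with *Orm1* (r = −0.01), *Saa3* (r = 0.03) and *Apcs* (r = 0.05). With *Apcs* that value joins opposite ones, r = −0.78 in the 5 apoC-III ASO livers and 0.91 in the 4 control ASO livers. After the group means were removed, *Orm3* had r = 0.20 with *Saa1*, 0.13 with *Saa2*, 0.65 with *Saa3* and −0.04 with *Orm1*. The negative values over all livers thus partly restate the difference between the groups.

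The genes most like each member across the 9 livers, by Pearson's r of log2(scaled TPM + 1), were mostly not acute phase genes. For *Saa3* they were *Arih1* (r = 0.95), *Slc40a1*, the iron exporter ferroportin (r = 0.93), and *Ctss*, a lysosomal protease of macrophages (r = 0.92). For *Orm1* they were *Zfand5* (r = 0.96), *Ambp* (r = 0.94) and *Arsb* (r = 0.92), and for *Hp* they were *Rbm5* (r = 0.93), *Mgst3* (r = 0.89) and *Lyz2*, a lysozyme of macrophages (r = 0.89). *Cdk14* was among the 3 nearest genes of both *Saa1* and *Saa2* (r = 0.93 each). The nearest gene was *Bnip2* for *Saa4* (r = 0.97), *Dhx8* for *Orm2* (r = 0.91), *Znhit6* for *Orm3* (r = 0.89), *Cep135* for *Lcn2* (r = 0.92) and *Crybb3* for *Apcs* (r = 0.97). These r values are the highest of 11954 genes over only 9 points and describe these livers.

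Around the members, the other genes of the acute phase response gave no call in either direction in any list. For comparison with each list, 49.8% of all genes tested were higher on the apoC-III ASO. Groups did not overlap in 0.92% of all genes upward and in 0.912% downward. Of 27 other positive acute phase genes, 25 were tested, 8 were higher and 17 lower, and the median log2 fold change was −0.24 beside 0.24 for the 10 members. An unadjusted p under 0.05 was found for 0 upward and 2 downward, against 2.99% upward and 2.58% downward of all genes tested. *Hamp*, the iron hormone hepcidin, was at 839 to 1772 scaled TPM in apoC-III ASO livers against 2021 to 2444 in control ASO livers, which did not overlap. Its log2 fold change was −0.86 (unadjusted p = 0.00477, adjusted p = 0.848, limma-trend with Benjamini-Hochberg adjustment). *Steap4*, a metalloreductase, had a log2 fold change of −0.55 (unadjusted p = 0.0368). *Fgl1*, a hepatokine induced by IL-6, was at −0.66 (unadjusted p = 0.0661, adjusted p = 0.884, limma-trend with Benjamini-Hochberg adjustment). The metallothioneins *Mt1* and *Mt2* had log2 fold changes of −1.53 and −1.32 that 2 control livers carried: *Mt1* was at 262 and 217 scaled TPM in control ASO replicates 3 and 4, at 11.5 and 8.58 in replicates 1 and 2, and at 4.61 to 37.1 in apoC-III ASO livers.

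Negative acute phase genes, which the liver lowers in inflammation, were all tested. Of these 17, 3 were higher and 14 lower, with a median log2 fold change of −0.24, where 49.8% of all genes tested were higher. The unadjusted p was under 0.05 for 0 upward and 2 downward, against 2.99% upward and 2.58% downward of all genes. *Cyp2c29*, a cytochrome P450, was at 569 to 695 scaled TPM in apoC-III ASO livers against 1150 to 2157 in control ASO livers. The log2 fold change was −1.07 (unadjusted p = 6.97e-04, adjusted p = 0.647, limma-trend with Benjamini-Hochberg adjustment), and its groups did not overlap. *Serpina6*, the corticosteroid-binding globulin, had a log2 fold change of −1.03 (unadjusted p = 0.0145), with overlapping groups. *Serpina1e*, one of several near-identical copies of α1-antitrypsin, had −1.70 (unadjusted p = 0.0583), with groups that did not overlap, and apoC-III ASO replicate 4 was at 151 scaled TPM where the other treated livers were at 2965 to 3735 and the controls at 4581 to 6678.

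**Figure D4:**
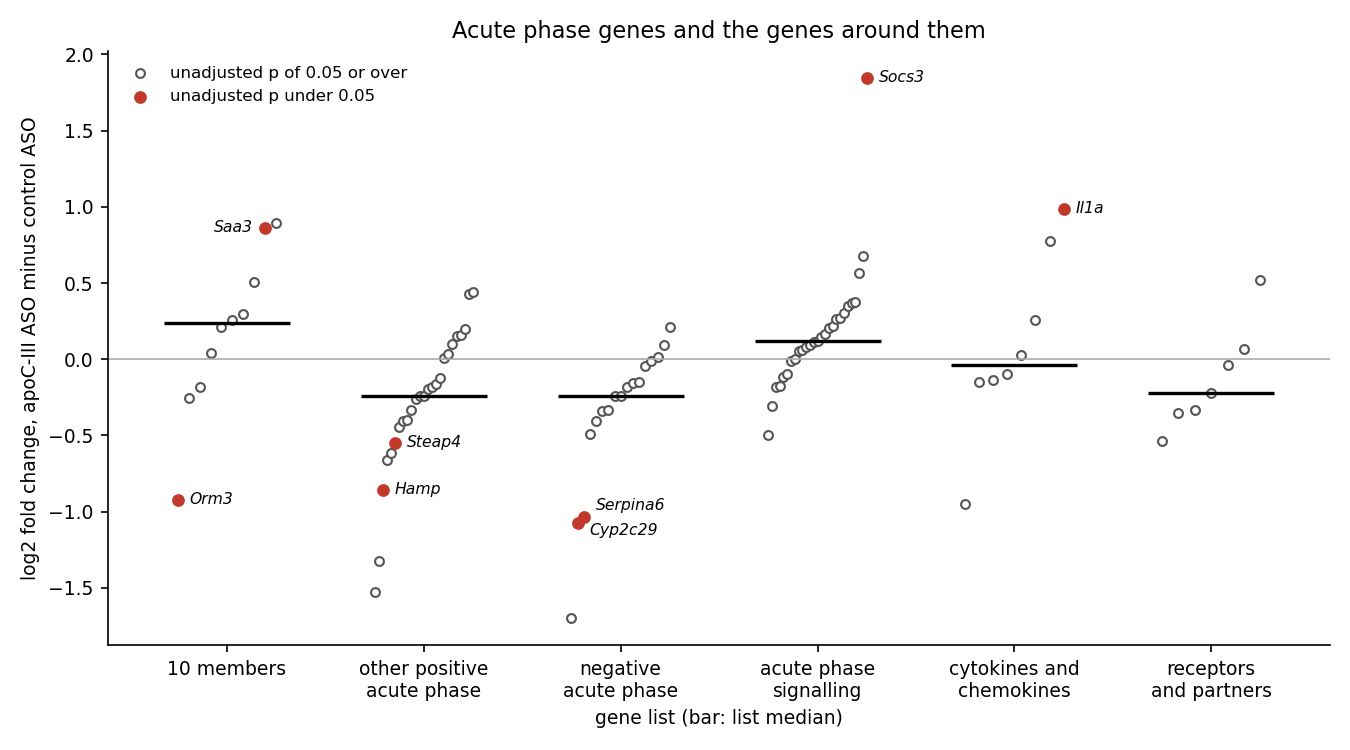
Log2 fold change of every tested gene in the list of 10 members and the 5 lists around it, apoC-III ASO minus control ASO, with bars at the list medians. Filled red points had an unadjusted p under 0.05 and are named. The medians were 0.24 for the members, −0.24 for both the other positive and the negative acute phase genes, and 0.12 for acute phase signalling.

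The signalling chain upstream of the members was expressed throughout, with 27 of 27 genes tested. Of these, 20 were higher and 7 lower, with a median log2 fold change of 0.12, where 49.8% of all genes tested were higher. *Socs3*, the feedback inhibitor that STAT3 induces, was at 34.2, 63.5, 21.03, 2.96 and 29.4 scaled TPM on the apoC-III ASO and at 12.8, 4.65, 13.9 and 0.36 in control ASO livers. Of the treated livers, 4 were above every control, replicate 4 was not, and the log2 fold change was 1.85 (unadjusted p = 0.0465, adjusted p = 0.878, limma-trend with Benjamini-Hochberg adjustment). The adaptor *Myd88* had a log2 fold change of 0.57, the TNF receptor *Tnfrsf1a* 0.68 and the inducible IκB protein *Nfkbiz* −0.50, and none reached an unadjusted p of 0.05.

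The cytokines that start the response were near the floor in whole liver. Of 14 cytokines, chemokines and adhesion molecules, 8 were tested, 4 higher and 4 lower. *Il1a*, an alarmin, was at 2.89, 2.22, 2.68, 0.73 and 4.88 scaled TPM on the apoC-III ASO and at 0.47 to 1.12 in control ASO livers, with a log2 fold change of 0.99 (unadjusted p = 0.0131, adjusted p = 0.864, limma-trend with Benjamini-Hochberg adjustment). *Il6* was listed above 0 in 2 of the 9 livers, apoC-III ASO replicates 1 and 5, at 1.07 and 1.83 scaled TPM, and *Osm* was listed at 0 in all. *Ccl2* and *Ccl5* had log2 fold changes of 0.77 and −0.95 and overlapped between groups. Of 12 receptors and partners of the member proteins, 7 were tested, 2 higher and 5 lower, none with an unadjusted p under 0.05. *Scarb1*, the HDL receptor that also takes up SAA, had the smallest p of these, with a log2 fold change of 0.52 (unadjusted p = 0.0655). *Apoa1*, the main HDL apolipoprotein, was at −0.34, *Cd36*, a scavenger receptor, at −0.35 and *Cd163*, which takes up haptoglobin bound to hemoglobin, at −0.54. The group means of *Cd163* went the other way, at 6.75 scaled TPM in treated livers against 6.07 in controls, since apoC-III ASO replicate 5 was at 23.2 and the other treated livers at 0.53 to 5.72.

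The labelled tissue matched its markers, with 7 hepatocyte markers summing to 25309 to 54794 scaled TPM in apoC-III ASO livers against 34646 to 45704 in control ASO livers, most of it *Alb*. Of these 7 markers 2 were higher and 5 lower, with a median log2 fold change of −0.30, and *Serpina1b* had an unadjusted p of 0.0354 (limma-trend). The other positive and the negative acute phase genes each had a median of −0.24. *Alb*, *Apoa1* and *Ttr* are also in the negative list, so these medians are not independent. The part of hepatocyte markers in those lists was not tested. Cholangiocyte markers summed to 37.9 to 81.4 and 41.0 to 121. No marker list for another cell type separated the groups, and the part of these cells in the spread of the members was not tested.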

How the data were processed

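Whole-liver RNA of 5 apoC-III ASO and 4 control ASO mice, grouped by the submitters' titles, had been sequenced with single-end reads from stranded libraries. The authors deposited TPM per gene, already normalized for gene length and library total. The submitters' processing notes name kallisto 0.43.1 and GRCm38, whereas the study's methods name STAR, featureCounts and DESeq2, and those counts were not used here. TPM keeps no depth, so the precision of a value in one liver is unknown. All 9 value columns belonged to a mapped liver.

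Identifiers were matched to GENCODE M21 (51633 of 51912, 99.5%). The values of nuclear protein-coding genes were brought to a sum of 1000000 in each liver, then divided by median-of-ratios factors from 12256 genes above 0 in all livers. Differential expression was tested with limma 3.58.1 in R 4.3.3 (lmFit, eBayes with trend) on log2(scaled TPM + 1), without covariates, in genes with a mean of at least 1. A call needed a change over 1.5-fold and an adjusted p under 0.05 by the Benjamini-Hochberg method, which are the study's thresholds. The pseudocount of 1 shrinks fold changes of low genes. Tables were handled in pandas 2.3.3 and numpy 2.4.6. The permutation tests of members and of member pairs were run in numpy, with ranks from scipy 1.17.1. Plots were drawn in matplotlib 3.10.9, all under Python 3.11.15. The fit was tested on simulated data.

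The members, lists, scaling and alternatives were chosen with earlier results of these data known. The text names the 10 members, *Apoc3*, *Saa-ps*, from each other list up to 3 genes with the smallest p and 2 with the largest change, and the genes nearest each member by Pearson's r. *Il6*, *Osm*, *Fabp4* and *Ltf* were named after their values were seen. Alternatives were other scalings, pseudocounts of 0.1 and 10, a minimum of 5 or none, other variance models, array weights, each liver left out, a block for the replicate number, calls without the fold threshold or at an adjusted p under 0.1, and 1 was added after seeing the data, TPM as deposited without control ASO replicate 4. No source says that same-numbered livers belong together, and p-values measure the spread between these mice only.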

Additional observations from a re-analysis of the deposited data

Results flagged for a closer look

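*Orm2* in control ASO replicate 3 was at 55.7 scaled TPM, far above the other controls at 18.4 to 21.1 (gap over range 0.927, above Dixon's 95% critical value of 0.829 for 4 samples). It was the single such value among 26 groups of livers tested, and chance alone gives about 1 in 20. That liver was above the mean of the 9 livers for all 10 members. Without it, the log2 fold change of *Orm2* was 0.41 in place of 0.04.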

How the results depend on the processing

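Under the 24 alternatives 0 of the members tested were called. *Saa1*, *Saa2* and *Saa3* stayed higher and *Orm3* lower wherever fitted, and the unadjusted p of *Orm3* was under 0.05 in 18 of 19 other fits and that of *Saa3* in 16 of 22. These fits reuse the same livers, so the counts show dependence on the processing and are not independent tests. The exception for *Orm3* was protein-coding rescaling without median-of-ratios factors (log2 fold change −0.51, limma-trend unadjusted p = 0.192), which moved the median of all genes to 0.41. TPM as deposited moved it to 0.11, and to −0.23 without control ASO replicate 4. *Orm3* and *Lcn2* were below the minimum mean, and so not tested, in TPM as deposited and with median-of-ratios scaling of all genes, and *Orm3* also in TPM as deposited without control ASO replicate 4.

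Directions turned as follows, and the cause was not tested. In TPM as deposited *Saa4* was at 0.0030 and *Apcs* at 0.061, and without median-of-ratios factors at 0.22 and 0.29. In TPM as deposited without control ASO replicate 4 *Orm1* was at −0.23, *Orm2* at −0.21 and *Hp* at −0.048. *Orm2* was at −0.11 with array weights. With a replicate block *Orm2* was at −0.0010 and *Lcn2* at −0.035. With a liver left out, *Orm2* ranged from −0.15 to 0.41, *Lcn2* from −0.13 to 0.60, *Saa1* from 0.04 to 0.82 and the median of the members from −0.03 (without control ASO replicate 2) to 0.38. Over all alternatives that median was between −0.05 and 0.71.

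Over all genes, 0 were called higher and 2 lower. TPM as deposited called 5 higher and 6 lower, and median-of-ratios scaling of all genes 1 and 1. TPM as deposited without control ASO replicate 4, and the replicate block, each called 1 higher. A pseudocount of 10, no filter, eBayes without trend and rescaling without the factors each called 1 lower, and with a liver left out 1 to 3 were. Same-numbered livers correlated at 0.03 to 0.19. The same-numbered control was the best match for apoC-III ASO replicate 4 and for no other replicate. These values do not settle whether replicate numbers pair the livers. With the block, *Saa3* had an unadjusted p of 0.0515 (limma-trend). The decrease of *Apoc3* was 87.4%, and 86.5% to 88.6% with a liver left out.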
